A study of Saccharomyces cerevisiae with 24 samples.

Results

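A set of 36 nucleotides of yeast ribosomal RNA (rRNA) carried a mutation in at least 0.5% of reads although no chemical probe had been added. They were taken from the 5354 nucleotides of 18S, 5.8S and 25S rRNA within the 6858 nt of the RDN37 transcript, of which 5350 had an effective depth of at least 1000 reads in each of the 6 libraries used for the choice. The choice rested on measured values: a site entered where the median mutation rate over the 6 untreated libraries of mature ribosomes was at least 0.005. Those rates are therefore a description, and nothing is read from a test on them. A rate here is the percentage of reads over a nucleotide that carry a mutation at it.

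The profiles came from DMS-MaPseq, in which dimethyl sulfate (DMS) methylates unshielded bases and the methylated base is then copied with errors. There were 24 libraries in 8 groups of 3, grown in YPD to mid-log phase, and the design text calls the replicates biological. Mature ribosomes came from BY4741, a common laboratory strain, or from BY4741 Δsnr31,Δsnr54, here called the deletion strain, which lacks the small nucleolar RNAs snR31 and snR54. Pre-40S particles, precursors of the small ribosomal subunit, were isolated through Utp9-TAP from yeast carrying Rrp5 in its wild-type form (WT) or as Rrp5_mL (mL). Both of these backgrounds carried H375A, so no pre-40S group is free of it. The sources used here do not say what mL and H375A stand for. Each of the 4 kinds of particle was probed with 1% DMS for 5 min at 30 °C or left without it, and all reactions are described as holding Bacillus subtilis RNase P RNA. The labels call the mature particles both 40S ribosomes and ribosomes. Both the mature and the pre-40S libraries held 25S reads, although 25S belongs to the large subunit.

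Depth differed between the 2 experiments. The median effective depth was 31938.5 to 87918 reads in the 12 mature libraries and 54 to 610 in the 12 pre-40S libraries, so a rate of 0.5% there rests on a few mutated reads. The lowest of these depths, 54, was that of WT untreated replicate 1. A few libraries stood apart at single sites. BY4741 untreated replicate 2 had 14 sites at 1% or more that were also over 5 times the highest of the other 5 untreated mature libraries, while each of those 5 had 0 such sites, and 1 of the 14, 18S A119, is among the 36. WT untreated replicate 2 had 180608 reads at 18S A119 against a median of 721.5 over 18S.

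Ribosomal RNA carries natural modifications that are placed during ribosome assembly. Pseudouridines and 2′-O-methylated riboses are guided by small nucleolar RNAs and leave base pairing intact, whereas a small number of base methylations are made by stand-alone enzymes. A methyl group on the Watson-Crick face, as in 1-methyladenosine (m1A) or 3-methyluridine (m3U), blocks pairing and makes a reverse transcriptase such as TGIRT-III insert a wrong base. A modification elsewhere, as in 5-methylcytidine (m5C) or pseudouridine, usually leaves copying accurate. A mutation rate is a share of reads, so a modification present on fewer molecules and one that is misread less often cannot be told apart from it.

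The sites with a known base modification are shown first, because they hold the highest rates. Each line gives 10 nt on either side in the deposited RNA sequence, 5′ to 3′, with the modified base in capitals. All sequences lie in the rDNA on chromosome XII, and position numbers count from 1 at the first base of each rRNA.
18S U1191: uuaauuugacUcaacacgggg
25S A645: gcccgucuugAaacacggacc
25S A2142: cugucuaauuAaaacauagca
25S U2634: gcacaucuguUaaacgauaac
25S U2843: agucaagcguUcauagcgaca
18S A1782: ccguaggugaAccugcggaag
18S G1575: cuucaacgagGaauuccuagu
In RDN37 these windows run from 1881 to 1901 (18S U1191), 3886 to 3906 (25S A645), 5383 to 5403 (25S A2142), 5875 to 5895 (25S U2634), 6084 to 6104 (25S U2843), 2472 to 2492 (18S A1782) and 2265 to 2285 (18S G1575).

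Set beside a list of 112 known natural modifications of yeast rRNA, the 36 sites fell into 5 kinds. There were 7 of the 12 known base modifications, 4 of the 56 known 2′-O-methylated riboses and 0 of the 44 known pseudouridines. The other 25 have no modification on the list: 16 guanosines, 6 adenosines, 2 cytidines and 1 uridine. By rRNA, 18 lay in 18S, 17 in 25S and 1 in 5.8S. By base, 18 were guanosines, which is 1.23% of the 1461 guanosines with the depth, against 0.703% of adenosines, 0.423% of uridines and 0.191% of cytidines. Guanosines also had the highest rate in general: the median over unmodified guanosines was 0.181%, against 0.0701% for cytidines, 0.0303% for uridines and 0.0267% for adenosines.

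**Figure D1:**
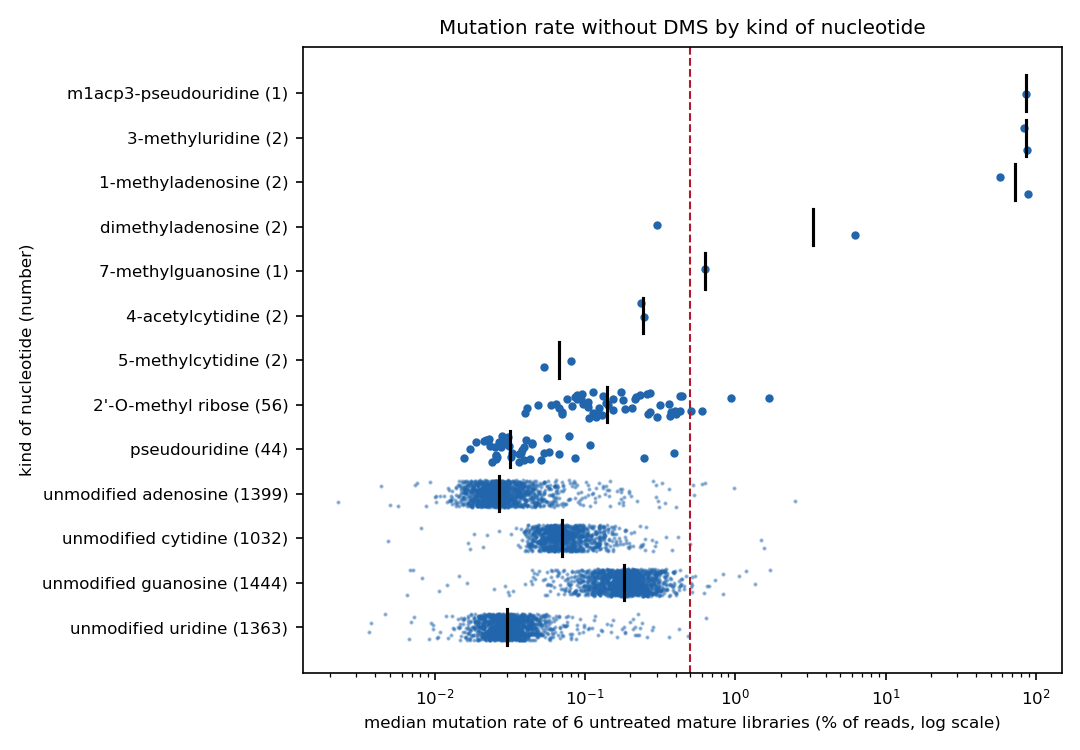
Median mutation rate over the 6 untreated mature libraries (percent of reads, log scale) for each of 5350 nucleotides, grouped by known modification or, where none is listed, by base, with the number of nucleotides in brackets. Points are nucleotides, black bars are medians and the dashed line is the 0.5% threshold. The m1acp3-pseudouridine, 3-methyluridine and 1-methyladenosine sites lie at 58.2% or more, and the 44 pseudouridines all lie left of the line.

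Rates differed widely between the modified bases, and kinds of modification overlapped. The m1acp3-pseudouridine of 18S was at a median of 85.7%, the 2 m3U sites of 25S at 83.8% and 87.1%, and the 2 m1A sites at 58.2% and 88.1%. Of the adjacent pair of N6-dimethylated adenosines made by Dim1 near the 3′ end of 18S, A1782 was at 6.23% and A1781 at 0.301%, which left A1781 out. The 7-methylguanosine of 18S, G1575, made by Bud23, was at 0.633%. The acetylcytidines made by Kre33, 18S C1280 and C1773, were at 0.247% and 0.237%. The m5C sites of 25S, C2278 (Rcm1) and C2870 (Nop2), were at 0.0535% and 0.0800%, close to the 0.0701% of unmodified cytidines. Among pseudouridines the median was 0.0317%, close to the 0.0303% of unmodified uridines, and the highest, 25S U2351, reached 0.390%. The median of the 2′-O-methylated sites was 0.140%. It depended on the base: the 10 methylated uridines had a median of 0.382% against 0.0303% for unmodified uridines, the 20 adenosines 0.140% against 0.0267%, the 10 cytidines 0.0943% against 0.0701% and the 16 guanosines 0.179% against 0.181%. These sites were chosen or grouped by the rates themselves, so these values are a description.

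**Figure D2:**
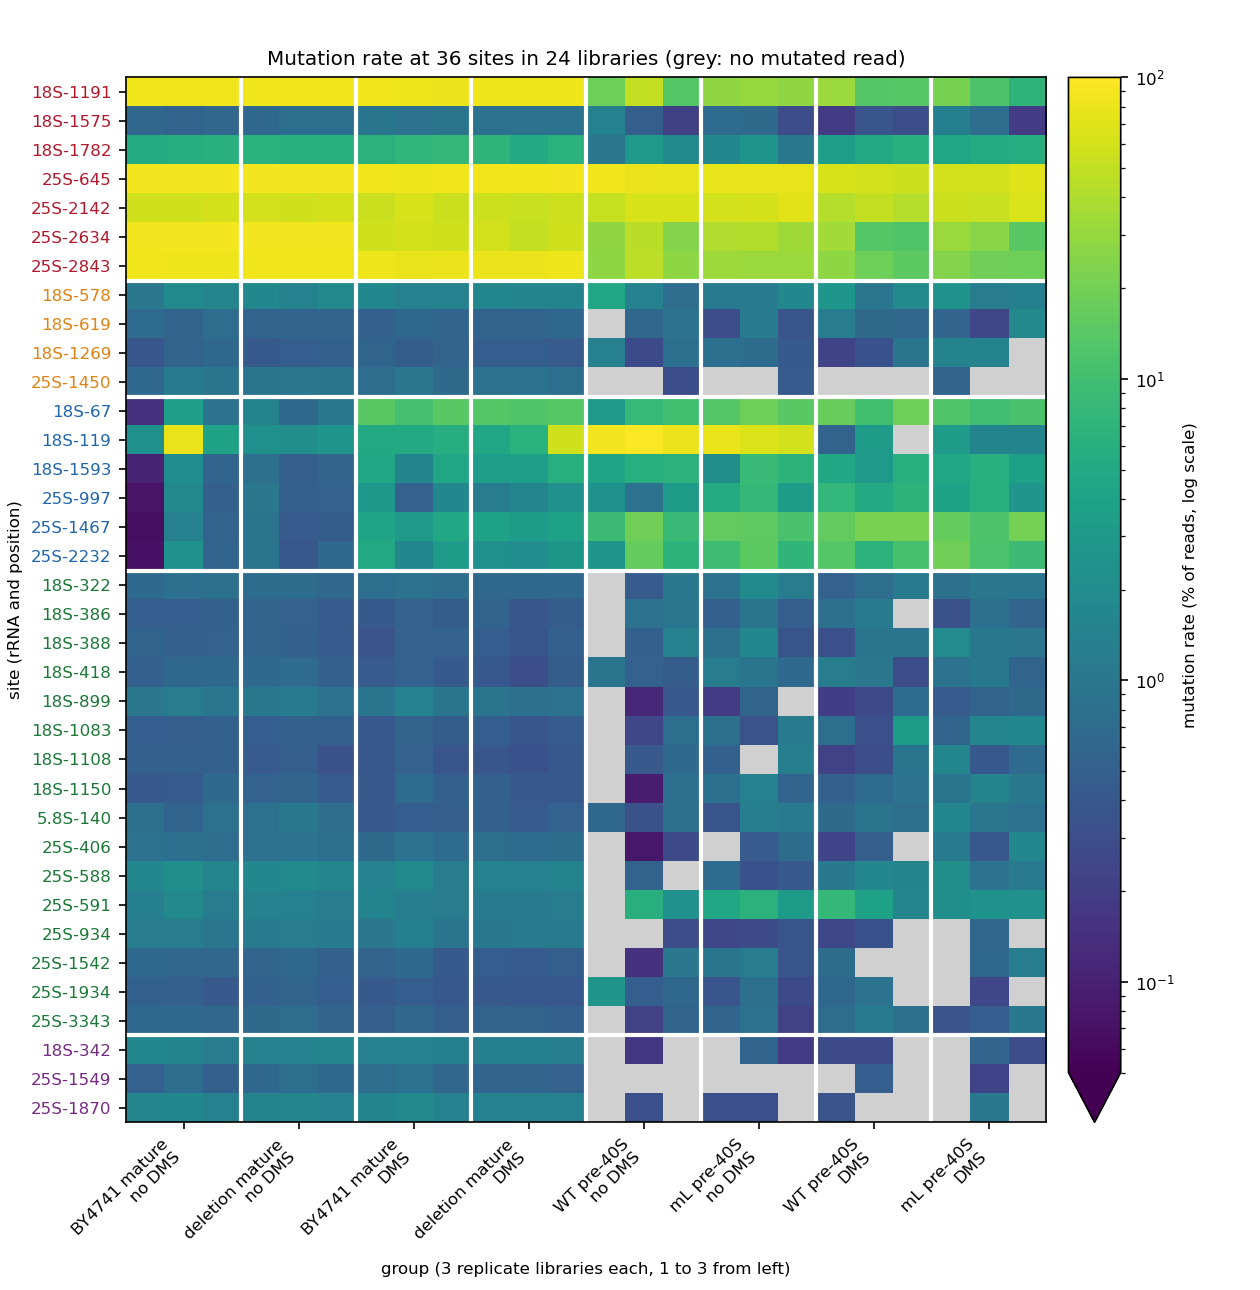
Mutation rate (percent of reads, log colour scale) at the 36 sites in the 24 libraries, with sites in rows named by rRNA and position and the 3 replicates of a group side by side. Row labels are red for known base modifications, orange for 2′-O-methylated riboses, blue for adenosines, green for guanosines and purple for pyrimidines with no listed modification. Grey cells had no mutated read, all of them in pre-40S libraries.

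18S U1191 sits in the loop that faces the P site of the ribosome, and its hypermodification to m1acp3-pseudouridine needs snR35, Emg1 and, in a late cytoplasmic step, Tsr3. It was mutated in 84.9%, 85.2% and 85.7% of reads in the untreated BY4741 libraries and in 85.7%, 86.2% and 85.7% in those of the deletion strain. With DMS the mature libraries gave 83.9%, 82.2% and 81.2% in BY4741 and 81.5%, 81.4% and 81.4% in the deletion strain. All 6 treated mature values lay just below all 6 untreated ones. Untreated pre-40S libraries gave 18.9%, 50.3% and 13.6% with WT and 28.5%, 30.8% and 28.3% with mL, and treated ones 31.8%, 13.3% and 13.7% (WT) and 21.1%, 11.98% and 7.03% (mL). The pre-40S rates were thus far below the mature ones in all 12 libraries.

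The m3U sites of 25S behaved alike in untreated libraries. At U2634, the target of Bmt5, the untreated mature rates were 86.7%, 87.1% and 87.4% in BY4741 and 87.0%, 87.1% and 87.5% in the deletion strain. At U2843, the target of Bmt6, they were 83.8%, 83.7% and 83.4% in BY4741 and 83.9%, 84.5% and 84.6% in the deletion strain. In untreated pre-40S libraries U2634 was at 28.6%, 45.6% and 24.1% (WT) and 39.9%, 41.7% and 33.8% (mL), and U2843 was at 27.1%, 46.9% and 27.7% and at 33.0%, 32.0% and 31.6%. Both sites were below every mature library there, and WT replicate 2 was the highest of the WT libraries at both, as at U1191. With DMS the 2 sites parted in mature ribosomes. U2634 gave 58.5%, 60.9% and 58.4% in BY4741 and 59.6%, 49.5% and 57.7% in the deletion strain, a median of 0.671 times the untreated one. U2843 gave 82.9%, 77.9% and 80.8% and then 80.8%, 81.2% and 81.9%, a median of 0.966 times.

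The m1A sites of 25S were high in both the mature and the pre-40S libraries. A645, methylated by Rrp8, was mutated in 88.0%, 87.4% and 87.5% of reads in untreated BY4741 and in 88.6%, 88.2% and 88.2% in the deletion strain. In untreated pre-40S libraries it was at 84.8%, 78.9% and 74.6% (WT) and 76.0%, 74.7% and 76.0% (mL), each below the lowest mature value. A2142, methylated by Bmt2, was at 57.0%, 57.4% and 61.7% in BY4741 and 59.0%, 57.2% and 60.5% in the deletion strain. Its untreated pre-40S rates of 51.7%, 62.3% and 63.0% (WT) and 58.8%, 61.2% and 70.4% (mL) overlapped the mature ones. With DMS, A645 was at 82.2% to 86.8% in mature libraries, just below the untreated range, and at 62.7%, 58.8% and 54.1% (WT) and 58.8%, 59.5% and 68.6% (mL) in pre-40S libraries. A2142 was at 52.5% to 63.3% in treated mature libraries and 42.6% to 65.9% in treated pre-40S libraries.

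A2142 also stood out in 2 readouts of depth. The choice used effective depth, as a minimum and as the denominator of the rate, so only the second readout lies outside it. Effective depth at A2142 was 0.514 of read depth, the median of the 6 untreated mature libraries. The median over all 5350 nucleotides was 0.949, and only 0.0561% of nucleotides had a lower ratio. The read depth 5 nt on its 5′ side was 0.690 of that 5 nt on its 3′ side, against a median of 1.00 for all nucleotides. Of the other 4 sites above 50%, A645 had a ratio of effective to read depth of 0.884 and U1191, U2634 and U2843 had 0.955, 0.937 and 0.964. The signal was confined to the single nucleotide: the immediate neighbours of these 5 sites had median rates of 0.00915% to 0.0826%.

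18S A1782 lay far lower, at 5.34%, 5.72% and 6.22% in untreated BY4741 and 6.51%, 6.26% and 6.24% in the deletion strain. Untreated pre-40S libraries gave 1.00%, 3.08% and 1.93% (WT) and 1.69%, 2.65% and 1.04% (mL), all below the mature ones. With DMS the mature rates were 6.51%, 7.36% and 7.84% in BY4741 and 7.14%, 5.18% and 6.44% in the deletion strain, which overlap the untreated ones. G1575 was at 0.568% to 0.771% over the 6 untreated mature libraries and at 0.854% to 0.952% over the 6 treated ones, with no overlap. This description has no test, since the untreated libraries chose the site. Over all 36 sites 3 were higher in every treated than in every untreated mature library and 5 were lower, against 40.5% and 0.972% of the 5350 nucleotides. The choice used the untreated libraries, so nothing is read from these shares.

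**Figure D3:**
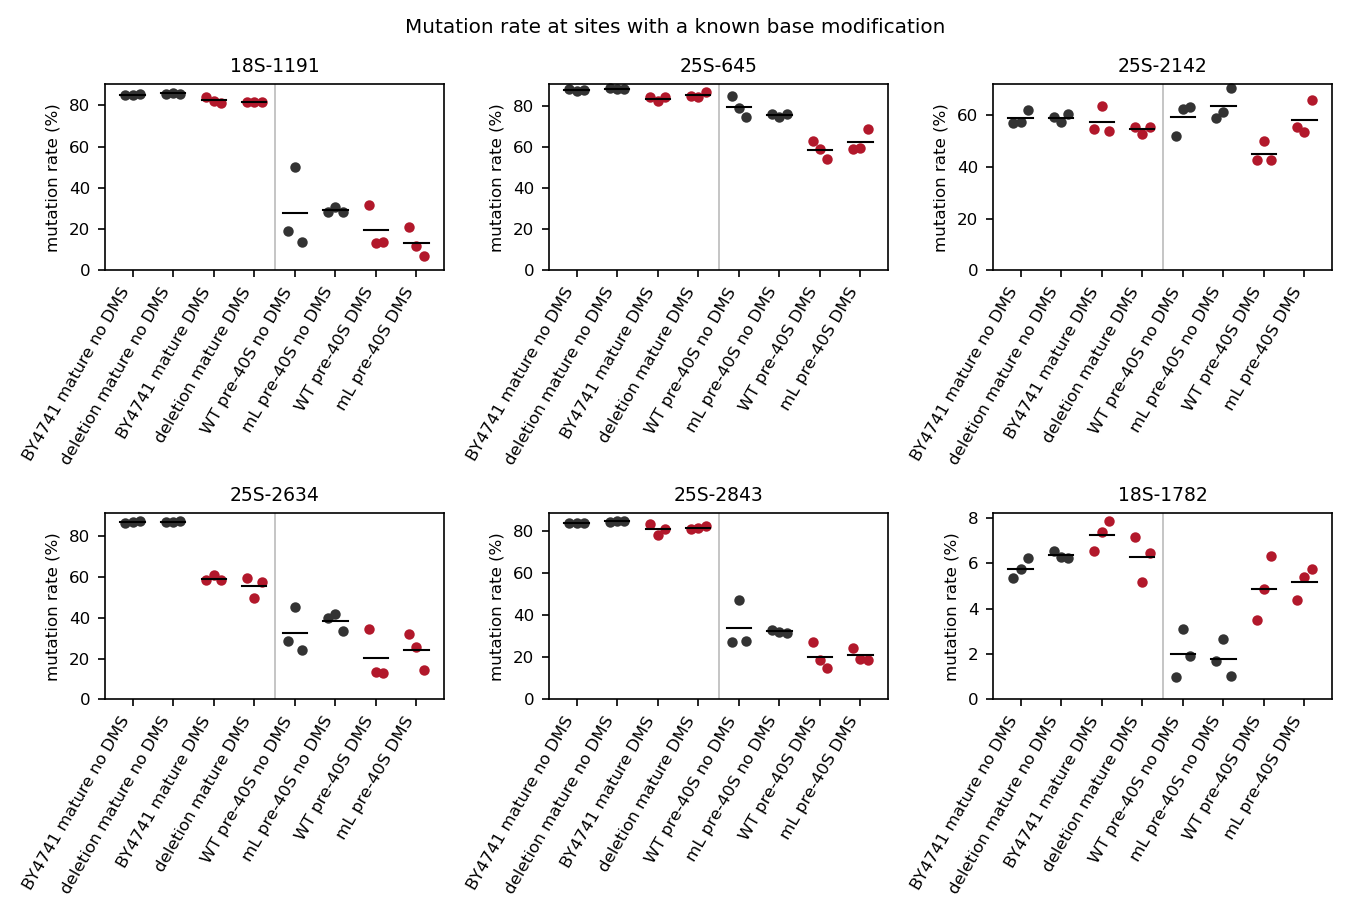
Mutation rate (percent of reads, linear axes from 0, a scale for each panel) at 6 sites with a known base modification. Points are libraries, black without DMS and red with DMS, and bars are means of 3. At 18S-1191, 25S-2634 and 25S-2843 all 12 pre-40S libraries lie below the mature ones, while at 25S-2142 the untreated values overlap.

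The 4 ribose-methylated sites that passed the threshold are shown because they are the exceptions among 56.
18S U578: gcagccgcggUaauuccagcu
18S A619: uguugcaguuAaaaagcucgu
18S U1269: uuguggguggUggugcauggc
25S G1450: ggugguaguaGcaaauauuca
The RDN37 windows are 1268 to 1288 (18S U578), 1309 to 1329 (18S A619), 1959 to 1979 (18S U1269) and 4691 to 4711 (25S G1450). 18S U578 was highest, at 1.01%, 1.89% and 1.58% in untreated BY4741 and 1.76%, 1.40% and 1.80% in the deletion strain. Treated mature libraries lay between 1.38% and 1.75%, within the untreated range, and untreated pre-40S libraries between 0.747% and 4.48%. 18S A619 (untreated mature median 0.598%) and 18S U1269 (0.510%) also had pooled untreated pre-40S rates close to the mature ones, 0.603% and 0.555%. 25S G1450 did not: it was at 0.654% to 1.16% in untreated mature libraries, but 3 mutated reads of 2512 were found in the 6 untreated pre-40S libraries together, or 0.119%, and 1 of 1622 (0.0617%) in the treated ones, where the treated mature libraries were at 0.844%.

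The 6 adenosines with no listed modification are shown next, because their rates varied most between libraries.
18S A67: gucuaaguauAagcaauuuau
18S A119: guuaucguuuAuuugauaguu
18S A1593: aguaagcgcaAgucaucagcu
25S A997: uuaugagguaAagcgaaugau
25S A1467: uucaaaugagAacuuugaaga
25S A2232: aaauucaaccAagcgcgggua
In RDN37 they run from 757 to 777 (18S A67), 809 to 829 (18S A119), 2283 to 2303 (18S A1593), 4238 to 4258 (25S A997), 4708 to 4728 (25S A1467) and 5473 to 5493 (25S A2232). In 4 of the 6 the next base on the 3′ side is also an adenosine, as it is for 31.0% of the 1399 unmodified adenosines with the depth.

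Between the untreated mature libraries the rates of these adenosines spanned a factor of 19.3 to 36.9, whereas the other kinds spanned at most a factor of 1.87. The median over the 6 adenosines was 0.0906%, 2.22% and 0.595% in BY4741 replicates 1 to 3 and 0.979%, 0.511% and 0.631% in the deletion strain. BY4741 replicate 1 was the lowest for 5 of the 6 (not A119) and BY4741 replicate 2 the highest for all 6. At A67 the untreated values were 0.150%, 3.43% and 0.894% in BY4741 and 1.48%, 0.631% and 1.08% in the deletion strain. At A1467 they were 0.0663%, 1.36% and 0.562%, and then 0.919%, 0.443% and 0.476%. The 3 others were alike: A1593 spanned 0.107% to 2.07%, A997 0.0739% to 1.76% and A2232 0.0719% to 2.37%. The same libraries gave 0.0279% to 0.0768% as the median of the 50 unmodified adenosines with the highest treated mature rates. This is a narrower span than that of the median over the 6, and A67 is itself among those 50. The 6 were chosen on these untreated libraries and the 50 on treated ones, so nothing is read from the difference.

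In pre-40S libraries these adenosines were high without DMS. The median over the 6 was 3.63%, 12.4% and 7.61% in untreated WT libraries and 11.3%, 15.0% and 9.24% in the mL libraries, while the 50 reactive adenosines had medians of 0 to 0.118%. At A67 the untreated rates were 3.03%, 8.14% and 9.87% (WT) and 13.1%, 18.4% and 14.2% (mL), against 17.1%, 9.92% and 18.9% and then 12.7%, 9.77% and 11.4% with DMS. At A1467 the untreated rates were 9.09%, 19.2% and 8.33% (WT) and 16.2%, 15.2% and 11.3% (mL), and the treated ones 12.1% to 21.7%. Treated and untreated pre-40S values overlapped at both sites. A1593 was at 2.15% to 8.48% without DMS and 2.95% to 6.09% with it, A997 at 0.888% to 7.80% and 2.61% to 7.69%, and A2232 at 2.70% to 16.6% and 6.54% to 19.1%. Pooled over the untreated libraries, the pre-40S rate was 24.8 times the mature one at A1467, 15.1 times at A2232, 9.68 times at A67, 8.46 times at A1593, 3.52 times at A119 and 2.61 times at A997. Single libraries moved 3 of these ratios by over 1.5 times. Without WT untreated replicate 2 the ratio was 6.44 at A997, where 66 of 1445 pre-40S reads were then mutated (4.57%, against 1.86% with it). Without BY4741 untreated replicate 2 it was 23.8 at A2232 and 39.6 at A119.

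With DMS all 6 adenosines had a higher median over mature libraries. A67 was at 14.2%, 10.5% and 14.5% in treated BY4741 and 13.6%, 12.5% and 13.8% in the treated deletion strain, all above the untreated values and 13.9 times them in the median. It ranked 19 among the treated medians of 1399 unmodified adenosines. A1467 ranked 109 with a ratio of 7.39, A1593 ranked 101 with 6.73, A2232 ranked 190 with 4.03, A997 ranked 321 with 3.11 and A119 ranked 65 with 2.17. A67 and A1467 were the 2 whose treated and untreated mature libraries did not overlap. Of all 5350 nucleotides, 40.5% were higher in every treated than in every untreated mature library. The choice used the untreated libraries, so nothing is read from this count.

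18S A119 was a case of its own. Untreated mature libraries gave 2.29%, 78.5% and 3.96% in BY4741 and 2.26%, 2.13% and 2.70% in the deletion strain, and treated ones 5.09%, 5.11% and 5.73% in BY4741 and 4.31%, 6.43% and 57.7% in the deletion strain. Untreated pre-40S libraries gave 88.1%, 99.6% and 81.0% (WT) and 77.3%, 67.1% and 59.9% (mL), against 0.557%, 3.16% and 0% and then 3.35%, 1.56% and 1.53% with DMS. The 0% stands for 0 of 208 reads. Single libraries therefore decided the mature group means, and every untreated pre-40S library was far above every treated one.

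High rates at A119 came with extra reads. In the 8 libraries at 57.7% or more, the depth at A119 was 2.00 to 250.3 times the median over 18S of the same library, and 3.06 times in BY4741 untreated replicate 2 and 2.08 times in deletion treated replicate 3. In the other 16 libraries it was 0.645 to 1.30 times. The unmutated reads alone were 0.635 to 1.27 times the 18S median in all 24 libraries. The other 5 adenosines had no such rise in most libraries, with depths of 0.558 to 2.04 times the median of their rRNA, except in WT untreated replicate 2, where A67 was at 6.30 and A997 at 6.67 times. What the extra reads are was not tested.

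**Figure D4:**
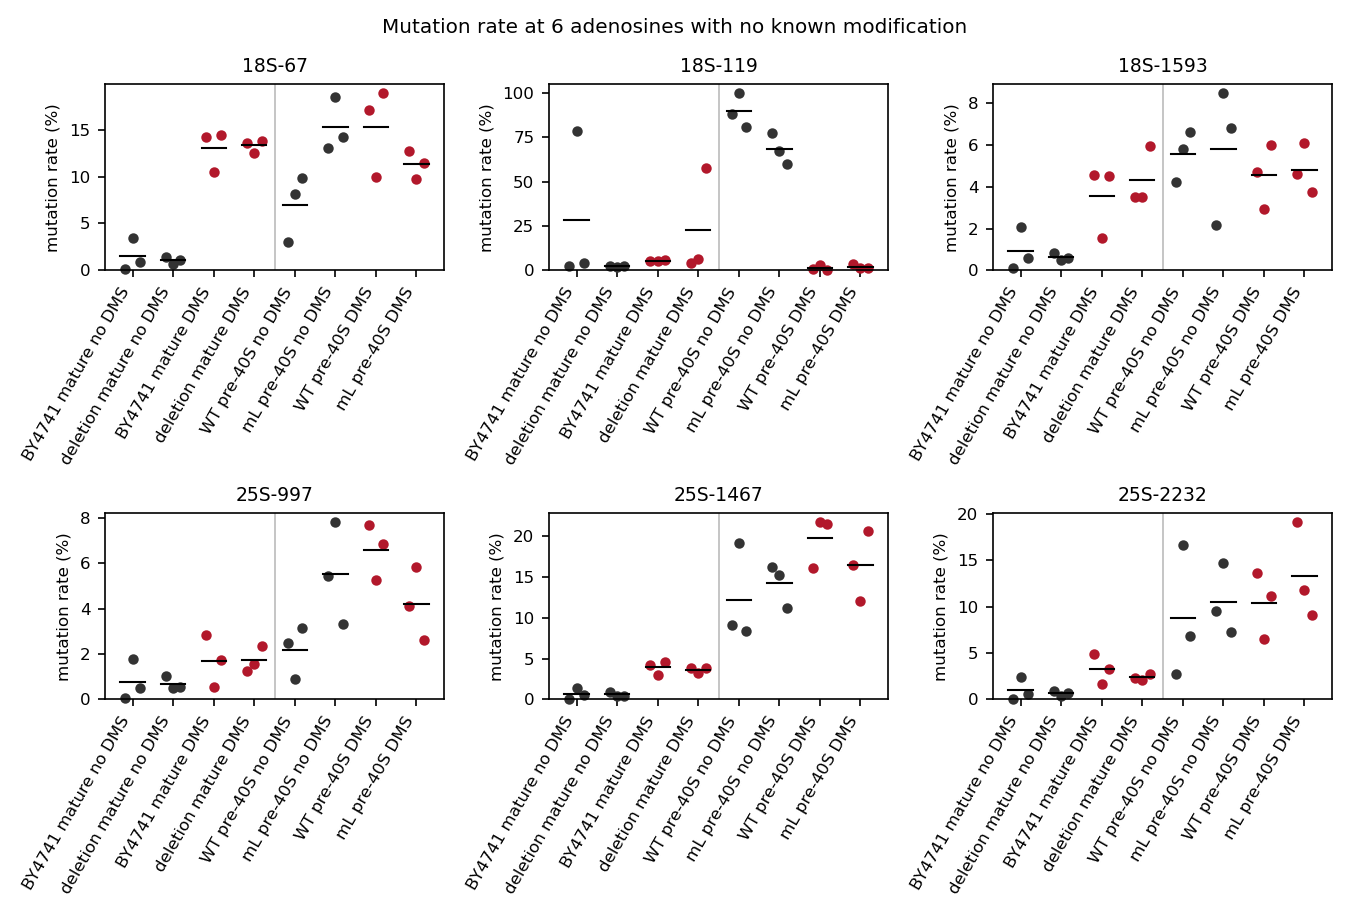
Mutation rate (percent of reads, linear axes from 0, a scale for each panel) at the 6 adenosines with no listed modification. Points are libraries, black without DMS and red with DMS, and bars are means of 3. Among pre-40S libraries the untreated values reach the treated ones at 5 sites. At 18S-119 the untreated values lie between 59.9% and 99.6%, while the treated ones lie at 3.35% or less.

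The guanosines and pyrimidines with no listed modification were steady. Among the 16 guanosines the untreated mature medians ran from 0.503% to 1.69% and the highest library was 1.105 to 1.86 times the lowest. The pyrimidines were at 0.642% to 1.54%, with a factor of 1.24 to 1.54. The sites that were above 0.8% in mature ribosomes are shown, because most of them had few mutated reads in untreated pre-40S libraries, and 25S U1549 is added as the only uridine.
18S C342: uaguggccuaCcaugguuuca
18S G899: ucaauugucaGaggugaaauu
25S G406: aaaaguacguGaaauuguuga
25S G588: agcugggacuGaggacugcga
25S G591: ugggacugagGacugcgacgu
25S G934: gaaccaucuaGuagcugguuc
25S C1870: ggugaacagcCucuaguugau
25S U1549: auggggaagcUccguuucaaa
5.8S G140: cagggggcauGccuguuugag
In RDN37 these are 1032 to 1052 (18S C342), 1589 to 1609 (18S G899), 3647 to 3667 (25S G406), 3829 to 3849 (25S G588), 3832 to 3852 (25S G591), 4175 to 4195 (25S G934), 5111 to 5131 (25S C1870), 4790 to 4810 (25S U1549) and 2991 to 3011 (5.8S G140). The remaining 10 guanosines, 18S G322, G386, G388, G418, G1083, G1108 and G1150 and 25S G1542, G1934 and G3343, had medians between 0.503% and 0.730%. At these 10 the pooled untreated pre-40S rate was 0.591 (25S G3343) to 1.66 times (18S G388) the mature one. Over all 16 guanosines this ratio was 0.127 to 3.09, with a median of 1.13.

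18S C342 was at 1.75%, 1.54% and 1.26% in untreated BY4741 and 1.43%, 1.44% and 1.57% in the deletion strain, and the treated mature libraries were at 1.29% to 1.44%. In untreated pre-40S libraries 4 of 2294 reads were mutated. 25S C1870 was at 1.40% to 1.74% in untreated and 1.36% to 1.80% in treated mature libraries, with 4 mutated reads of 1908 in untreated pre-40S libraries. 25S U1549 was at 0.507% to 0.783% in untreated mature libraries and had 0 of 1831 reads in the untreated pre-40S libraries, which allows a share of up to 0.164%. With DMS the pooled pre-40S rates were 7 of 2176 reads (0.322%) at C342, 4 of 1212 (0.330%) at C1870 and 2 of 1522 (0.131%) at U1549. The pooled treated mature rates were 1.34%, 1.47% and 0.660%. At U1549 the effective depth was 0.786 of read depth, lower than at all but 0.636% of nucleotides. These limits cover counting error only.

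Among the guanosines, 25S G588 was highest, at 1.70%, 2.13% and 1.57% in untreated BY4741 and 1.68%, 1.85% and 1.60% in the deletion strain. In untreated pre-40S libraries it had 8 mutated reads of 1955, or 0.409%. In treated ones it had 19 of 1482, or 1.28%, against 1.48% pooled over the treated mature libraries. 25S G934 had 5 of 3322 (0.151%, against 1.19% pooled over mature libraries), 18S G899 had 7 of 3101 (0.226% against 1.05%) and 25S G406 had 8 of 3048 (0.262% against 0.841%). With DMS the pooled pre-40S rates were 0.277% at G934 (5 of 1808, against 1.11% in treated mature libraries), 0.457% at G899 (10 of 2189, against 0.951%) and 0.487% at G406 (6 of 1232, against 0.742%). At 5.8S G140 the pre-40S rate was 0.731% without DMS (48 of 6566, against 0.889%) and 0.914% with it (51 of 5582, against 0.485%). 25S G591, only 3 nt away, went the other way from G588: it was at 1.22% to 1.77% in untreated mature libraries and at 0%, 5.81% and 2.37% (WT) and 4.56%, 6.60% and 3.17% (mL) in untreated pre-40S libraries. The 0% is 0 of the reads of WT replicate 1, the shallowest library. Of the 16 guanosines 9 were followed by an adenosine, against 27.8% of the 1444 unmodified guanosines with the depth.

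Across all 36 sites, 13 were higher in every untreated mature library than in every untreated pre-40S library, and 3 were lower, against 10.6% and 1.98% of the 5350 nucleotides. The 13 were U1191, A1782, A645, U2634 and U2843 among the base modifications, the ribose-methylated G1450, the guanosines G899, G406, G588 and G934 and the pyrimidines C342, U1549 and C1870. The 3 were the adenosines A1593, A1467 and A2232. The sites were chosen for high mature rates, so the first count is no evidence of a difference, and purification, depth and experiment cannot be told apart between the 2 sets. Of the 36, 27 had a median of at least 0.5% in treated mature libraries and 25 in untreated pre-40S libraries. No share of all 5350 nucleotides is set beside these counts, so nothing is read from them.

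**Figure D5:**
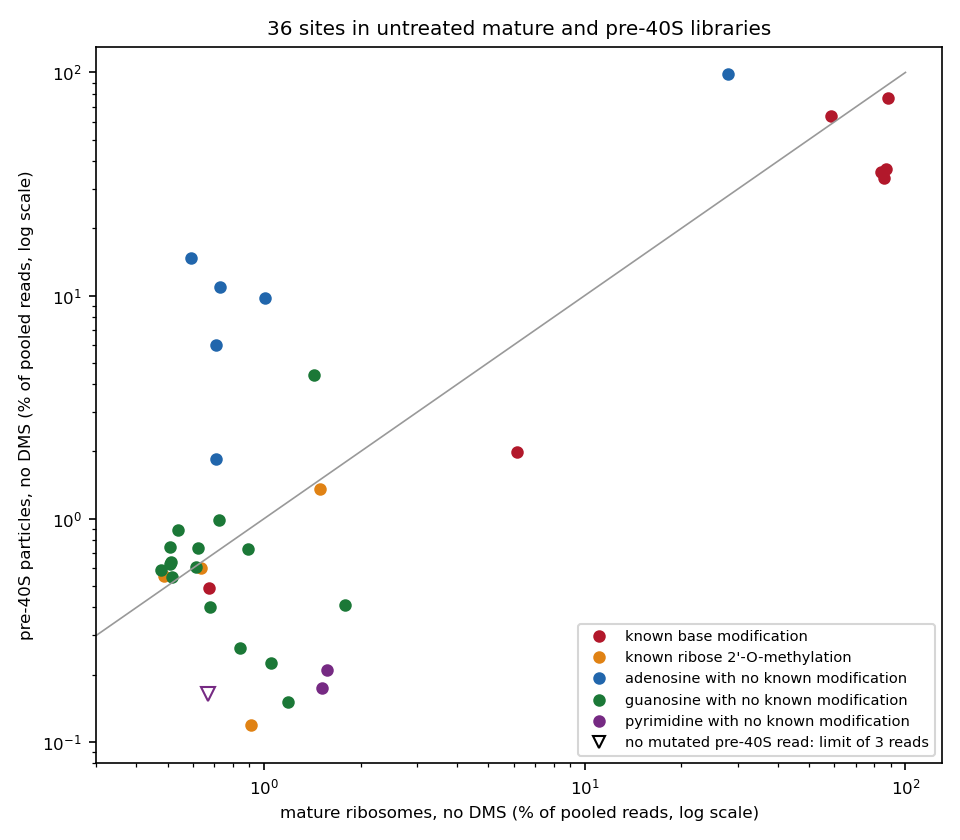
Mutation rate of the 36 sites without DMS, as percent of the reads pooled over the 6 mature libraries (x axis, log scale) and over the 6 pre-40S libraries (y axis, log scale), coloured by kind; the line marks equal rates. The open triangle is 25S U1549, with no mutated pre-40S read, drawn at the limit of 0.164%. The blue adenosines lie above the line and the purple pyrimidines below it.

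The next comparisons are between strains. The choice of sites pooled both mature strains, but it used the 6 untreated libraries, so nothing is read from the untreated strain comparison or from the interaction that includes them. Mutation counts were compared with edgeR's quasi-likelihood test over all nucleotides with enough reads, and a site was called at a Benjamini-Hochberg adjusted p under 0.05. Without DMS, 0 of the 36 differed between the deletion strain and BY4741, where 0% of the 5306 tested nucleotides were called. At an unadjusted p under 0.05 there were 1 of the 36 and 162 of all. DESeq2 called 0 of the 36 and 1 of all nucleotides, and limma called 0 of either. The 5 sites above 50% differed by 0.00 to 0.01 on the log2 scale, with SE of 0.0133 (A645), 0.0134 (U2843), 0.0197 (U2634), 0.0308 (U1191) and 0.0402 (A2142). The widest SE, 0.75 to 1.12, belonged to the 6 adenosines. The median log2 difference of the 36 was 0.00 and that of all tested nucleotides -0.06.

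With DMS, 1 of the 36 differed between the mature strains, where 1.1% of 5292 nucleotides were called. It was 18S A119, higher in the deletion strain by 2.10 on the log2 scale (SE 0.517, edgeR adjusted p = 0.0477), at 22.8% ± 30.2 (SD, n = 3) against 5.31% ± 0.361 in BY4741. The call rests on deletion replicate 3 at 57.7%: without it the log2 difference was 0.02 (adjusted p = 0.98). It was also lost without BY4741 replicate 1, 2 or 3 in turn (adjusted p = 0.203, 0.0836 and 0.0685). The library factor, DESeq2 and limma did not call it. The strain by DMS interaction, which includes the libraries of the choice, called 0 of the 36 in edgeR, where 0.0187% of 5346 nucleotides were called. At an unadjusted p under 0.05 there was 1 of the 36, against 608 of the 5346, and limma called 0 of either.

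Between mL and WT particles 0 of the 9 sites with enough reads differed without DMS, where 2.82% of 213 nucleotides were called, and 0 of 18 with DMS, where 2.38% of 1301 were called. At an unadjusted p under 0.05 there were 0 of the 9 and 3 of the 18, against 23 of the 213 and 137 of the 1301 nucleotides. DESeq2 and limma called 0 of the sites in both. With DMS, 18S U1191 had 13.4% ± 7.14 with mL and 19.6% ± 10.5 with WT (SD, n = 3, log2 difference -0.66, SE 0.232, edgeR adjusted p = 0.135). It was called without WT replicate 2 (-0.90, adjusted p = 0.0287) and without mL replicate 1 (-1.03, adjusted p = 0.0217). 25S A2142 had a log2 difference of 0.36 (SE 0.172, adjusted p = 0.393), with 58.2% ± 6.76 with mL and 45.1% ± 4.26 with WT. Depth limits what these comparisons can show, since 27 and 18 of the 36 sites had too few reads or mutations to be tested.

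DMS itself was tested at these sites in the pre-40S libraries, where the choice had used none of the values. Most nucleotides passed the minimum of 30 mutations through the treated libraries: 75.2% of those tested with WT and 90.03% with mL had fewer than 30 in the untreated libraries, among them 2 of 7 and 5 of 18 sites. The shares called depend on that minimum. At 30 mutations 79.9% of 548 with WT and 83.2% of 933 with mL were called, and the median log2 change over all tested nucleotides was 4.49 and 4.17. By direction, 422 were called higher and 16 lower with WT, and 737 higher and 39 lower with mL. With a minimum of 1 mutation, 27.9% of 3667 (WT) and 26.6% of 6199 (mL) were called, among them 1 of 21 and 5 of 36 sites. Of the 36 sites 3 of 7 tested were called with WT, 2 higher and 1 lower, and 6 of 18 with mL, 1 higher and 5 lower. Their median log2 changes were 0.43 and -0.20. The 7 and 18 are those with enough reads and mutations, not all members.

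18S A1782 rose with DMS in both. It went from 2.00% ± 1.04 to 4.88% ± 1.41 with WT (SD, n = 3, log2 change 1.07, SE 0.507, edgeR adjusted p = 0.0448) and from 1.80% ± 0.811 to 5.16% ± 0.712 with mL (log2 change 1.67, SE 0.386, adjusted p = 2.16e-05). The WT call was lost without untreated replicate 1 or 3 or treated replicate 2 or 3 (adjusted p = 0.116, 0.108, 0.2 and 0.227), and DESeq2 and limma did not make it (adjusted p = 0.135 and 0.228). A library factor scales each library to the median rate of the tested nucleotides, most of which passed through the treated libraries. It turned the log2 change to -2.85 (WT) and -1.997 (mL), from which no comparison with other nucleotides is drawn. Its neighbour A1781, the other dimethylated adenosine and not among the 36, rose from 0.162% ± 0.280 to 3.09% ± 0.866 with WT (log2 change 3.61, SE 0.738, edgeR adjusted p = 1.88e-06). With mL it rose from 0.130% ± 0.122 to 4.73% ± 2.23 (log2 change 4.70, SE 0.654, adjusted p = 2.45e-12). With the library factor its change was -0.17 (WT, adjusted p = 0.892) and 1.22 (mL, adjusted p = 0.285). The untreated values of A1781 rest on 3 and 2 mutated reads, so A1781 passed the minimum of 30 mutations only through the treated libraries. A1782 with mL also had fewer than 30 in the untreated libraries. For these the minimum depended on the group where the rate is high. Nothing is read from their adjusted p, and their values are a description. In mature ribosomes A1781 stayed at 0.268% to 0.353% without DMS and at 0.110% to 0.321% with it.

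18S A119 was the site that fell most with DMS. It went from 89.6% ± 9.42 to 1.24% ± 1.68 with WT (SD, n = 3, log2 change -5.98, SE 1.40, edgeR adjusted p = 3.32e-05) and from 68.1% ± 8.76 to 2.15% ± 1.04 with mL (log2 change -5.13, SE 0.225, adjusted p = 1.69e-104). It was called without any one of the libraries. DESeq2, limma and the other alternatives that could test A119 called it too. The highest adjusted p over all these edgeR, DESeq2 and limma fits was 0.0241 (WT) and 5.29e-08 (mL). The depth at A119 fell with it, from 2.00 to 250.3 times the 18S median without DMS to 0.645 to 0.976 times with DMS.

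In the mL libraries edgeR also called the natural m1acp3-pseudouridine and m3U sites lower with DMS. Only U1191 was called by DESeq2 and limma too (adjusted p = 0.0044 and 0.0145). U2634 (adjusted p = 0.0781 and 0.0768) and U2843 (0.0523 and 0.103) were not called by DESeq2 or limma. 18S U1191 fell from 29.2% ± 1.39 to 13.4% ± 7.14 (SD, n = 3, log2 change -1.18, SE 0.239, edgeR adjusted p = 1.32e-06), and it was called without any one of the 6 libraries. 25S U2634 fell from 38.5% ± 4.14 to 24.02% ± 9.13 (log2 change -0.71, SE 0.249, adjusted p = 0.00579), and was not called without treated replicate 2 or 3 (adjusted p = 0.0609 and 0.132). 25S U2843 fell from 32.2% ± 0.731 to 20.9% ± 3.13 (log2 change -0.66, SE 0.213, adjusted p = 0.00267), and was not called without treated replicate 2 (adjusted p = 0.0774). With WT, U1191 was at 27.6% ± 19.8 and 19.6% ± 10.5 (log2 change -0.54, SE 0.45, adjusted p = 0.268; without untreated replicate 3, -0.94, adjusted p = 0.0191), and the 25S sites had too few reads in replicate 1 to be tested. The m1A site A645 was at 75.6% ± 0.748 and 62.3% ± 5.49 with mL (log2 change -0.28, SE 0.185, adjusted p = 0.158; without treated replicate 3, -0.35, adjusted p = 0.0434).

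The other 2 called sites were less steady. 18S A67 rose with WT from 7.01% ± 3.56 to 15.3% ± 4.74 (SD, n = 3, log2 change 0.98, SE 0.454, edgeR adjusted p = 0.0396). The call was lost without untreated replicate 1 or treated replicate 1, 2 or 3 (adjusted p = 0.147, 0.0992, 0.109 and 0.201) and with DESeq2 and limma (adjusted p = 0.11 and 0.2), and with the library factor the change was -3.03. With mL, A67 was at 15.2% ± 2.84 and 11.3% ± 1.49 (log2 change -0.45, SE 0.257, adjusted p = 0.0958). It was called lower without untreated replicate 1 (-0.55, adjusted p = 0.0315) or 3 (-0.51, adjusted p = 0.0282). Without the shallow WT untreated replicate 1, 25S A997 could be tested and was called higher with DMS (log2 change 2.00, edgeR adjusted p = 0.00706). That fit keeps WT untreated replicate 2, where the depth at A997 was 6.67 times the 25S median. The rate there was 0.888%, against 3.14% in replicate 3. With mL, A997 was not called (log2 change -0.27, SE 0.377, edgeR adjusted p = 0.509). 25S G591 fell with mL from 4.78% ± 1.72 to 2.36% ± 0.147 (log2 change -0.92, SE 0.436, adjusted p = 0.0417), and 5 of the 6 fits that left out a library did not call it, nor did DESeq2 or limma (adjusted p = 0.119 and 0.0990). The interaction of Rrp5 form and DMS in edgeR called 0 of 15 sites, where 0.938% of 1279 nucleotides were called. An unadjusted p under 0.05 was found for 1 of the 15 and 108 of the 1279.

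The threshold cut through a continuum. The 3 sites just inside it were 18S G1150 (0.503%), G1108 (0.504%) and U1269 (0.510%), and the 3 just outside were 18S C343 (0.497%), U517 (0.484%) and G373 (0.473%). C343 is the base next to C342. U517 resembled the 6 adenosines in its spread, at 0.0942%, 1.89% and 0.497% in untreated BY4741, and it was at 2.67% to 18.5% in untreated pre-40S libraries.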

How the data were processed

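Per the labels' protocols, purified particles were probed with DMS or left untreated and their RNA was fragmented, reverse transcribed with TGIRT-III and sequenced. The submitters' processing notes name Bowtie2 without a version. Neither the mutation counter nor the build is named in the labels. In the deposited files, mutated reads and effective depth are counts and the rate is a fraction that equals the count over the effective depth within 5e-07. No 2 libraries shared more than 0.291% of rates.

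Counts were tested with edgeR 4.0.16 in R 4.3.3 (log of effective depth as offset, Benjamini-Hochberg adjustment over all nucleotides tested). Tested nucleotides had at least 30 mutations over the libraries compared together, and a depth of at least 1000 (mature) or 50 (pre-40S) in each of them. DESeq2 1.42.0, limma 3.58.1, a library factor, a replicate block, other minima and leaving out each library were alternatives. The tests were checked on simulated counts. Named sites were all 36 members, all known base modifications, the 3 sites on either side of the threshold, and 18S A974 and U999, targets of snR54 and snR31. The members and the list of modifications, which comes from background knowledge, were chosen with earlier results of these data known.

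Region bounds match the RDN37-1, RDN18-1, RDN58-1 and RDN25-1 features of the R64 reference table. No source mentions molecular identifiers, so limits cover counting error only.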

Additional observations from a re-analysis of the deposited data

Results flagged for a closer look

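18S A974, the target of snR54, showed a DMS effect that differed between the mature strains by a test of the interaction itself, and it was the 1 nucleotide of 5346 called. The DMS effect in the deletion strain exceeded that in BY4741 by 2.90 on the log2 scale (SE 0.376, edgeR adjusted p = 0.00509). In BY4741 the rate was 0.140% ± 0.0406 without DMS and 0.400% ± 0.0533 with it (SD, n = 3). The deletion strain had 0.0267% ± 0.00912 and 0.539% ± 0.0169. It is not among the 36 sites, and the 6 untreated mature libraries gave 0.166%, 0.162% and 0.0936% in BY4741 and 0.0349%, 0.0169% and 0.0284% in the deletion strain. The deletion strain differed from BY4741 by -2.47 without DMS (SE 0.342, edgeR adjusted p = 0.213). With DMS it differed by only 0.43 (SE 0.218, edgeR adjusted p = 0.255), so most of the interaction lay in the untreated libraries. DESeq2 called the untreated difference (adjusted p = 1.51e-05), and edgeR did so without BY4741 untreated replicate 2 (adjusted p = 0.0169). 18S U999, the target of snR31, had an interaction of -0.57 (SE 0.643, adjusted p = 0.794).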

How the results depend on the processing

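The number of sites was 650 with a threshold of 0.2%, 14 with 1%, and 33 to 38 with a library left out. In treated mature ribosomes the library factor, DESeq2 and limma each called 0 of the 36 (range 0 to 1 with a library left out). They called 0%, 4.78% and 0% of all tested nucleotides, and leaving out a library gave 0.0190% to 13.8%. For DMS in pre-40S particles the library factor, which scales to the tested nucleotides, called all 7 with WT and all 18 with mL, all lower: A67 became -3.03, A1782 -2.85 (WT) and -1.997 (mL), and A1781 -0.17 (WT). With WT, DESeq2, limma, the replicate block, a minimum of 1 or of 100 mutations and a depth of 200 each called 1, and leaving out a library gave 1 to 3. In that order, 75%, 80.1%, 75.2%, 27.9%, 67.8% and 66.1% of all tested nucleotides were called, and 66.8% to 94.1% with a library left out. With mL, DESeq2 and limma called 3 and lost G591, U2634 and U2843, a depth of 200 called 1, and leaving out a library gave 3 to 7. Of all tested nucleotides DESeq2 called 79.4%, limma 80.9%, a depth of 200 81.6%, and leaving out a library 74.6% to 86.2%. A depth of 20 called 1 site in untreated mL against WT (A119), and leaving out a library gave 0 to 1 in the treated mL comparison and in the mature interaction, where the 1 came without BY4741 untreated replicate 1. Of all tested nucleotides that depth called 1.77%, and leaving out a library in the treated mL comparison 0.377% to 2.99%. The interaction without that replicate called 18 of all nucleotides. Over all nucleotides, DESeq2 called 253 in the treated mature strains, against 58 in edgeR and 0 in limma. Between mL and WT, edgeR, DESeq2 and limma called 6, 1 and 0 untreated and 31, 7 and 0 treated. For DMS the library factor called 190 of all nucleotides against 438 (WT) and 446 against 776 (mL). Of the 190 and 446 it called 115 and 239 lower. The replicate block called 0, 1, 0, 0, 1 and 5 sites in the 6 comparisons, against 0%, 0.416%, 0%, 0.999%, 75.2% and 80.6% of all tested nucleotides. Whether the replicate numbers pair the samples was not settled. Correlations of same-numbered libraries ran from -0.33 to 0.278, and in no comparison did every library correlate best with its own number. With 3 libraries per group these values cannot exclude pairing. The difference at A974 was not called by limma (2.79, adjusted p = 0.0579) or without deletion untreated replicate 2 (2.60, adjusted p = 0.0521). The alternatives for A974, and leaving out libraries for the pre-40S over mature ratio of the 6 adenosines, were chosen after seeing the data. Of 112 alternatives for counts 85 stayed within 1.5 times, and of 170 for single sites 121 kept direction and call. The cause was not tested. Pre-40S depth limits what could be detected.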

Other observations

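Looking from the pre-40S side, 54 nucleotides of mature rRNA had a median rate of at least 3% in the 6 untreated pre-40S libraries with a median depth of at least 50. They were 26 adenosines, 23 uridines, 4 cytidines and 1 guanosine, and 12 of them were among the 36 sites. The other 42 had untreated mature medians of at most 0.484%. The choice itself keeps sites with the depth that are outside the 36 below 0.5%, so nothing is read from this ceiling. This listing was made after the values were seen.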
